A study of Rattus norvegicus with 63 samples.

Results

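The liver protein response to diethylstilbestrol (DES), given for 3 days, was examined in 3 treated rats against the 3 vehicle-treated rats that the sample labels assign to it as control set 5. These animals were DES 1, 2 and 3 and the methylcellulose controls 7, 8 and 9, so 6 of the 63 animals of the series, and all 158 analytes measured in them were used. All 63 animals were male Wistar Hanover rats, 8 to 10 weeks old at assignment, dosed by gastric gavage. Livers of rats given 1 of 15 compounds or vehicle, in groups of 3, were profiled on reverse-phase protein arrays, where lysates of all livers are spotted side by side and a different antibody, for a protein or a modified form of it, is applied to every array. DES was given at 10 mg/kg/day. The control animals received methylcellulose and are labelled 14 days, whereas DES is labelled 3 days. The paper's methods call the control groups time-matched, and which of the sources holds was not settled here. If the labels hold, an effect of the compound and of the dosing time cannot be told apart in this comparison.

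The assignment of the control animals was itself uncertain, because the set labels 2, 5 and 6 disagree with the log2 ratios the authors deposited. Which animals those ratios refer to was not settled. Results against set 5 are therefore given beside those against all 12 methylcellulose controls, which form sets 1, 2, 5 and 6 of 3 animals each. 3 other compounds serve for direct comparison. Piperonylbutoxide (PBO, 1200 mg/kg/day for 3 days) and ethionine (ETH, 200 mg/kg/day for 14 days) are labelled with the same set 5, and Wy-14643 (Wy, 60 mg/kg/day for 3 days) with set 1. The paper is not uniform on the vehicle of these compounds. Its methods name carboxymethyl cellulose for DES, PBO, ETH and Wy. Its overview of compounds gives methylcellulose for DES and ETH and carboxymethyl cellulose for PBO and Wy. Which holds was not settled, so the vehicle may differ between the groups compared. The treated animals had been picked from larger dose groups for visible liver pathology, as the study's methods state, so the treated groups hold selected animals.

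DES is a synthetic, non-steroidal estrogen that binds and activates the estrogen receptors. The male liver carries estrogen receptor alpha, and estrogens given to male rats act on the liver both directly and through the pituitary, whose growth hormone pattern sets much of the sex-specific expression of hepatic cytochromes P450. DES is regarded as a carcinogen that does not act primarily by mutating DNA. The panel held neither estrogen receptor, and the nearest readouts were signaling proteins, cell cycle regulators and cytochromes P450.

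The measured quantity was the relative fluorescence intensity (RFI), on a linear scale on which analytes cannot be ranked against each other, because each antibody has its own brightness. Analytes carry the deposited gene symbol, written as for the human gene, and the modified residue (P-S10 for phosphorylated serine 10), and antibodies that share a symbol are numbered. The median RFI per animal ran from 0.536 to 0.678 in DES, from 0.533 to 0.583 in set 5 and from 0.504 to 0.882 in all 12 methylcellulose controls. No RFI of the 6 animals was at or below 0. The labelled tissue could be checked in part: 4 of 9 hepatocyte markers were on the panel, and HNF4A, a hepatocyte transcription factor, read 2.23 ± 0.23 in DES and 1.89 ± 0.18 in set 5 (mean ± SD, n = 3). Defining markers of bile duct cells, stellate cells, endothelial cells and leukocytes were not measured, so the cell makeup of the livers was not tested. In such whole-tissue lysates fewer cells of a type and less protein per cell cannot be told apart.

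At an adjusted p below 0.05 (limma over all 63 animals, Benjamini-Hochberg over 158 analytes), 4 analytes were called between DES and set 5, which is 2.53% of those tested. The transcription factor STAT3 rose. Phosphorylated ribosomal protein S6, the cell cycle inhibitor CDKN1B with phosphorylated serine 10, and glutamine synthetase (GLUL) fell. Against all 12 methylcellulose controls 4 analytes were again called (2.53%), 1 higher (0.633%) and 3 lower (1.9%), and they were the same analytes. For GLUL 2 of the 12 controls were left out, because their RFI was at or below 0, which favoured its call. The 12 controls include set 5 and the DES animals are the same, so this is not an independent check. Against set 1, 2 or 6 alone only CDKN1B_P-S10 was called. With the 12 controls as 1 group RPS6_P-S235/S236 was not called. At an unadjusted p below 0.05, 17 analytes differed from set 5 (10.8%) and 24 from all 12 controls (15.2%).

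**Figure D1:**
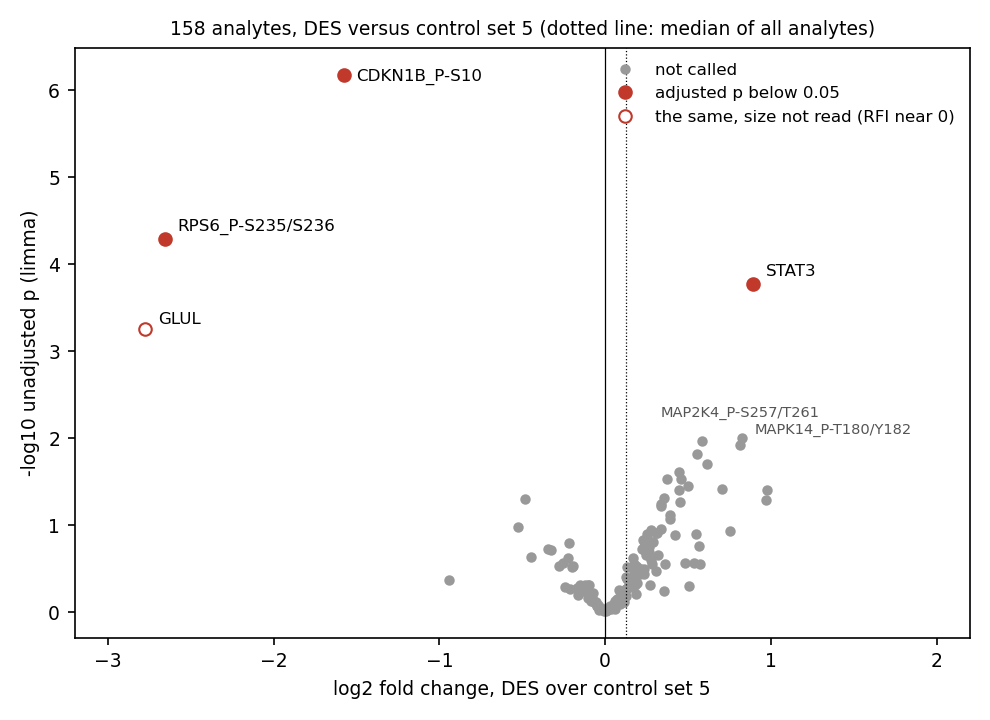
Each point is 1 of 158 analytes, with the log2 fold change of DES over control set 5 on the x axis and -log10 of the unadjusted limma p on the y axis. The 4 called analytes stand away from the remaining points, and the dotted line marks the median log2 fold change of all analytes, 0.13. The position of GLUL on the x axis is drawn open because its RFI lies near 0.

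STAT3 carries the signal of interleukin-6 and other cytokines from the receptor to the nucleus and drives the acute-phase response of the liver. Total STAT3 read 2.72, 3.00 and 3.80 in DES animals 1 to 3, against 1.84, 1.80 and 1.46 in the animals of set 5. All 3 DES animals exceeded every one of the 12 methylcellulose controls, whose highest value outside set 5 was 2.36. The log2 fold change was 0.89 with a standard error (SE) of 0.22 (1.86-fold, adjusted p = 0.0090 by limma), and 0.74 with an SE of 0.17 against all 12 controls (adjusted p = 0.0076). STAT3 was the only analyte of 158 with all DES animals above all 12 controls (0.633%). Without DES animal 3 the log2 fold change was 0.75 (adjusted p = 0.128) and without control animal 9 it was 0.79 (adjusted p = 0.0924), and neither was a call. Against set 1, 2 or 6 alone STAT3 had a log2 fold change of 0.70, 0.73 or 0.62, again without a call (adjusted p = 0.0942, 0.0886 and 0.2 by limma).

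The phosphorylated forms of STAT3 were not called. STAT3_P-Y705, the tyrosine-phosphorylated form that marks cytokine-activated STAT3, read 0.349, 0.372 and 0.472 in DES and 0.334, 0.363 and 0.317 in set 5. STAT3_P-S727, the serine form, read 0.274, 0.377 and 0.415 in DES and 0.326, 0.435 and 0.327 in set 5. The ranges of both forms overlapped between the groups, and their log2 fold changes were small (0.23 and -0.04, adjusted p = 0.66 and 0.968 by limma). Set against total STAT3 within each animal, the ratios of both forms were lower in DES. The log2 ratio fell by 0.67 for Y705 (SE 0.18 and adjusted p = 0.0089 by limma) and by 0.93 for S727 (SE 0.28 and adjusted p = 0.0192). Each is the change of the form less that of total STAT3. Both ratio calls thus carry the rise of total STAT3 and are not separate evidence. The RFI of STAT3_P-Y705 followed its own row of the deposited log2 ratios only weakly (Spearman's rho 0.239 over 45 treated animals). The S727 ratio was not called without DES animal 1 (-0.86, adjusted p = 0.069), control animal 8 (-0.84, adjusted p = 0.0926) or control animal 9 (-0.89, adjusted p = 0.0522). Of the 48 such ratios of a modified form over its total protein, 7 were called against set 5 (14.6%) and 9 against all 12 controls (18.8%), and the count against set 5 was 3 without DES animal 1, 4 without DES animal 2 and 3 without control animal 8.

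Among the other JAK-STAT members, the kinase JAK1 had a similar ratio. JAK1_P-Y1022/Y1023, its activation-loop form, read 0.336, 0.439 and 0.604 in DES and 0.564, 0.566 and 0.372 in set 5, and total JAK1 read 0.451, 0.657 and 0.671 against 0.454, 0.504 and 0.431. Neither was called alone. Their log2 ratio differed by -0.48 (SE 0.15 and adjusted p = 0.0294), a call that was lost without DES animal 1 (-0.46, adjusted p = 0.069) or 2 (-0.38, adjusted p = 0.206) and without control animal 7 (-0.36, adjusted p = 0.21) or 8 (-0.44, adjusted p = 0.1). SOCS3, the feedback inhibitor that STAT3 itself induces, read 0.0927, 0.184 and 0.160 in DES and 0.113, 0.176 and 0.105 in set 5, with overlapping ranges. Of the 12 analytes in the JAK-STAT list, STAT3 was thus called and 11 were not, and the median log2 fold change was 0.14, beside 0.13 over all 158 analytes.

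**Figure D2:**
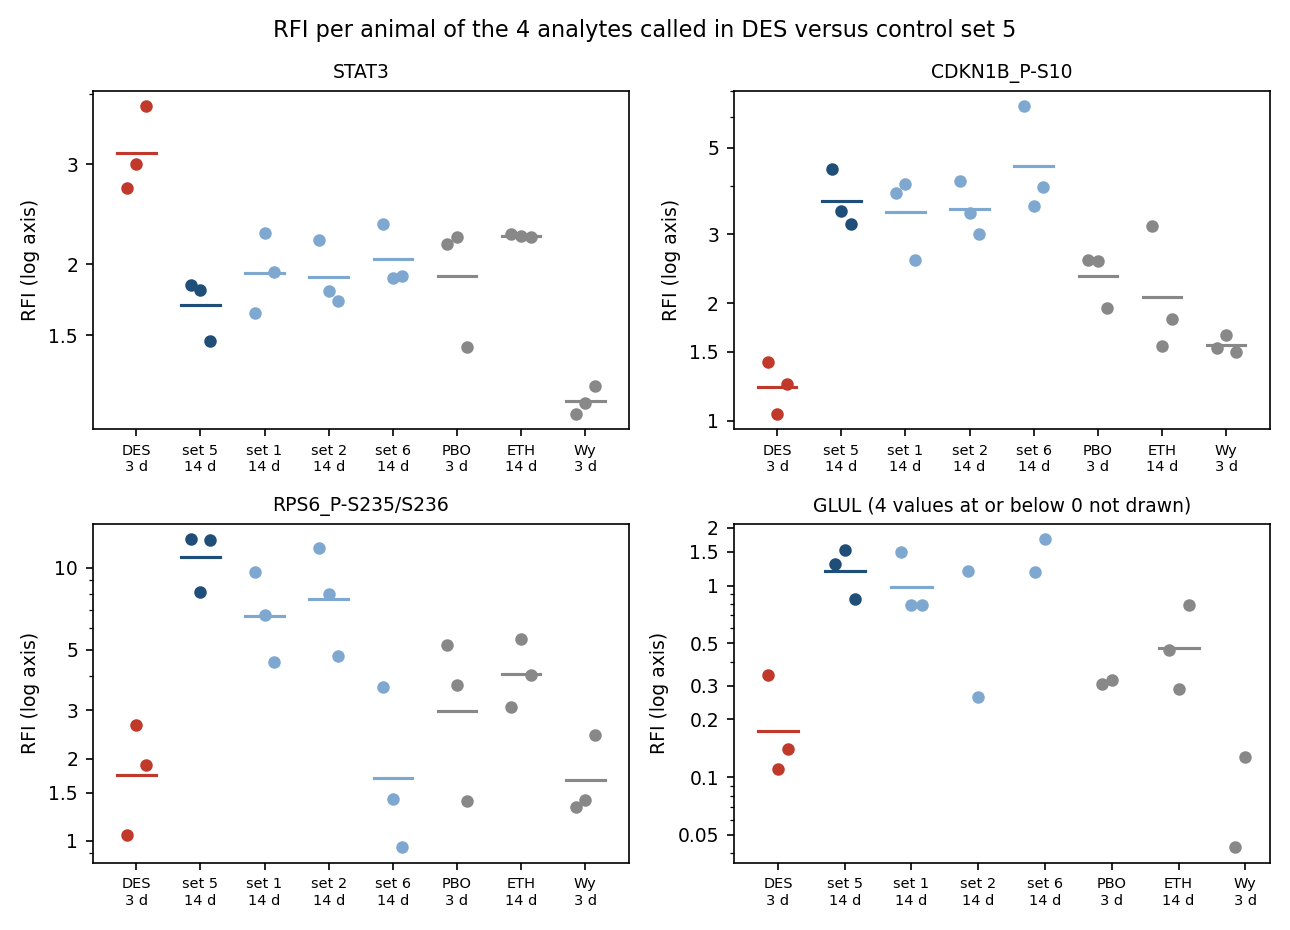
RFI per animal on a log axis for the 4 called analytes in DES (red), control set 5 (dark blue), the other methylcellulose sets (light blue) and the groups given PBO, ETH and Wy (grey), with the dosing days under each group. Bars are geometric means of 3 animals and are left out where a value lies at or below 0. STAT3 and CDKN1B_P-S10 in DES lie outside all 12 controls, whereas RPS6_P-S235/S236 in DES overlaps set 6.

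CDKN1B (p27) inhibits cyclin-dependent kinases, and phosphorylation of its serine 10 is known to affect its stability and its export from the nucleus. CDKN1B_P-S10 read 1.41, 1.04 and 1.24 in DES and 4.42, 3.43 and 3.18 in set 5. The highest DES animal lay below the lowest of all 12 controls, which outside set 5 ran from 2.59 to 6.40. The log2 fold change was -1.58 (SE 0.27, 2.98-fold lower, adjusted p = 1.04e-04 by limma), and -1.61 (SE 0.22 and adjusted p = 3.0e-07) against all 12 controls. It was the only analyte of 158 with all DES animals below all 12 controls (0.633%). Among the 21 groups of the series DES had the lowest mean, 1.23 ± 0.19, next to 1.26 ± 0.25 for C.I. Direct Black (mean ± SD, n = 3), neighbours that do not differ beyond their spread. The other carcinogen groups were low as well, with means from 1.56 in dehydroepiandrosterone to 2.42 in phenobarbital. The vehicle sets had means from 3.13 to 4.64, and the non-carcinogens cefuroxime and nifedipine read 2.92 and 3.49. A low signal was thus not particular to DES.

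The other CDKN1B signals were not called. The total antibody read 0.108, 0.174 and 0.145 in DES and 0.114, 0.134 and 0.0947 in set 5, and CDKN1B_P-T187, the form that marks the protein for degradation, read 2.19, 2.76 and 2.38 against 2.51, 2.09 and 1.95. The groups overlapped for both, and their log2 fold changes were 0.30 and 0.16. The ratio of CDKN1B_P-S10 over total fell by 1.88 on the log2 scale (SE 0.29 and adjusted p = 3.3e-06). The name of this antibody is not beyond doubt. In the deposited log2 ratios the row named CDKN1B_P-S10 had a mean of 0.07 in the DES animals and the row named CDKN1B a mean of -1.60, close to the fall found here under the name CDKN1B_P-S10, so the ratio over total rests on which of the 2 names is right.

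Ribosomal protein S6 (RPS6) is phosphorylated by S6 kinase downstream of mTOR and by ribosomal S6 kinases downstream of ERK, and this form is a common readout of growth signaling that also follows feeding. RPS6_P-S235/S236 read 1.05, 2.64 and 1.89 in DES and 12.7, 8.16 and 12.6 in set 5. The groups were far apart, with a log2 fold change of -2.65 (SE 0.59, 6.30-fold lower, adjusted p = 0.0041 by limma). The size depended on the reference. Set 5 had the highest mean of all 21 groups, 11.1 ± 2.59, and the animals of set 6 read 3.66, 1.43 and 0.945, overlapping DES. The DES mean of 1.86 ± 0.80 ranked 3 from the lowest, above dehydroepiandrosterone (0.974) and Wy (1.73).

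With all 12 controls as the reference RPS6_P-S235/S236 stood at -1.68 on the log2 scale (SE 0.47 and adjusted p = 0.0341). Against set 1, 2 or 6 alone it was -1.93, -2.14 or 0.03 (adjusted p = 0.0942, 0.0609 and 0.997 by limma), so no fall was seen against set 6. Between set 5 and the other 9 controls no analyte was called (smallest adjusted p = 0.992), and 2 of 158 had an unadjusted p below 0.05 (1.27%). RPS6_P-S235/S236 was one of them, with set 5 higher by 1.30 on the log2 scale (SE 0.49).

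The S6 protein itself was not called. RPS6_1 read 15.7, 19.4 and 27.1 in DES and 15.5, 11.9 and 21.3 in set 5, and RPS6_2 read 0.199, 0.472 and 0.478 against 0.162, 0.266 and 0.317, both with overlapping ranges. The ratio of the phosphorylated form over total S6 fell by 3.12 on the log2 scale (SE 0.70 and adjusted p = 0.0014), and by 2.11 against all 12 controls (adjusted p = 0.0053). Upstream, RPS6KB1_P-T389, the mTOR-phosphorylated S6 kinase, read 0.848, 0.995 and 0.860 in DES and 0.670, 1.09 and 0.676 in set 5. Its log2 fold change was 0.19 (SE 0.38), and within the 19 analytes of the PI3K, AKT, mTOR and S6 list RPS6_P-S235/S236 was the only call, with a list median of 0.16.

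**Figure D3:**
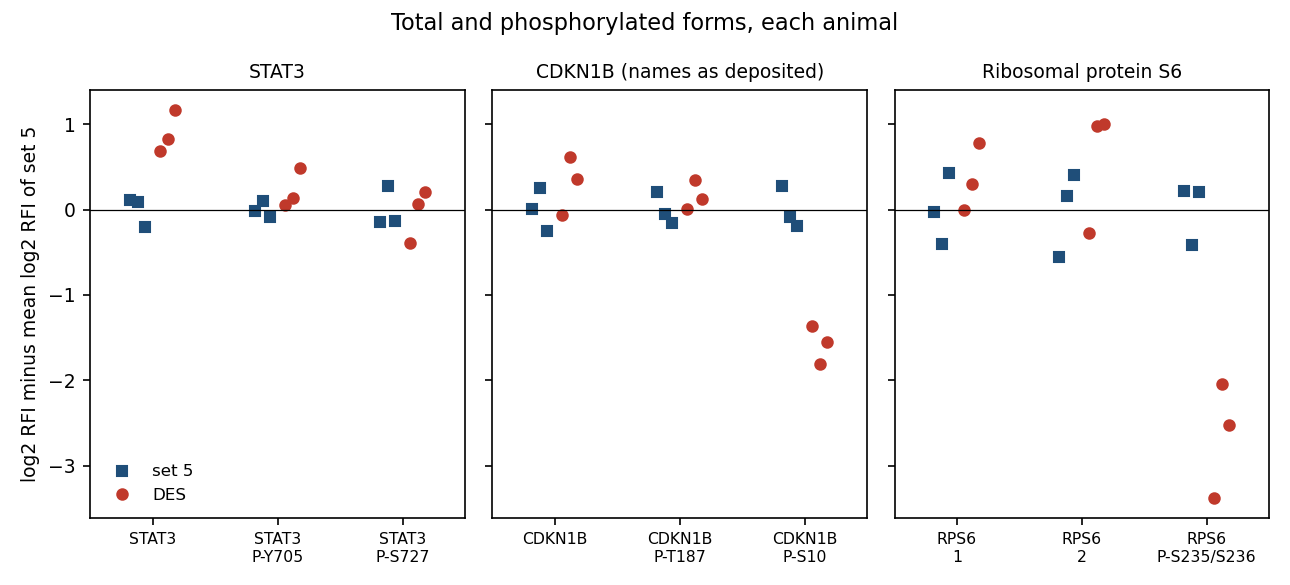
log2 RFI of each animal minus the mean log2 RFI of set 5, for total and phosphorylated forms of STAT3, CDKN1B and ribosomal protein S6 in DES (red circles) and set 5 (blue squares). Total STAT3 lies above set 5 with its phosphorylated forms near 0, while CDKN1B_P-S10 and RPS6_P-S235/S236 lie below set 5 with their total proteins near or above 0.

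GLUL makes glutamine from ammonia and is confined to hepatocytes next to the central vein, where beta-catenin signaling maintains it. GLUL read 0.341, 0.111 and 0.139 in DES and 1.29, 1.54 and 0.849 in set 5, without overlap (adjusted p = 0.0217 by limma). The antibody worked close to its background, and GLUL read at or below 0 in 10 of the 63 animals, down to -2.28. No fold change is given for this reason. By mean RFI, DES (0.197) ranked 8 from the lowest of 21 groups, with Wy at -0.703 and PBO at -0.452. The other 9 methylcellulose controls ran from -1.34 to 1.74, on both sides of DES, and 2 of them at or below 0 had to be left out of the comparison with all 12 controls (adjusted p = 0.0083). Both lay below every DES animal, so leaving them out raised the control mean in the direction of the call. The call against set 5 was lost without DES animal 2 or 3 (adjusted p = 0.2 and 0.128) and without control animal 7 or 8 (adjusted p = 0.0945 and 0.137). Against set 1, 2 or 6 alone GLUL was not called either (adjusted p = 0.0942, 0.416 and 0.0535).

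Other pericentral proteins were not called. CYP2E1, a P450 of the same zone, was measured with a pair of antibodies, and CYP2E1_2 read 6.09, 14.5 and 6.74 in DES and 5.25, 3.49 and 4.34 in set 5. All DES animals lay above set 5, animal 2 far above, and the log2 fold change of 0.97 (SE 0.48) was not called (adjusted p = 0.424). Beta-catenin itself (CTNNB1) read 2.00, 3.30 and 2.60 in DES and 1.97, 2.37 and 2.06 in set 5. Of 11 analytes in the beta-catenin and zonation list, GLUL was called and 10 were not, with 6 positive and 5 negative log2 fold changes and a median of 0.22.

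In all, 20 analytes had their 3 DES animals outside the range of set 5 (12.7%), 16 above (10.1%) and 4 below (2.53%). With 3 animals a group, such separation also arises by chance in part of a panel. How often was not tested, so non-overlap alone does not mark a response. The 4 called analytes were among them, and 4 others belong to the stress kinase list. AKT1, BAX, MAP3K7, EIF2A, STAT5A and PDK1_P-S241 lay above set 5 with log2 fold changes from 0.45 (AKT1) down to 0.25 (PDK1_P-S241). The fold changes leaned upward over the whole panel, with 111 positive and 47 negative values and a median of 0.13, so a small positive value is little different from the bulk. Centring each animal on its median took the median to 0.01 and left the same 4 calls.

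The stress kinase list held 9 analytes, of which 4 lay above the range of set 5, beside 16 of all 158 (10.1%), and none was called. The list was chosen with earlier results of these data known, so the count is a description only. MAPK14_P-T180/Y182, the active form of p38, read 1.04, 1.00 and 1.16 in DES and 0.438, 0.691 and 0.724 in set 5. DES had the highest mean of the 21 groups, 1.07 ± 0.08 (SD, n = 3), followed by 0.854 ± 0.07 in acetamide, but 1 of the 12 methylcellulose controls reached into its range. The log2 fold change was 0.83 (SE 0.31 and adjusted p = 0.269). Total MAPK14 read 0.481, 0.459 and 0.638 in DES and 0.416, 0.580 and 0.476 in set 5, and the ratio of the active form over total was called at the threshold, 0.73 on the log2 scale (SE 0.26 and adjusted p = 0.0499), and against all 12 controls (0.64, adjusted p = 0.0188). It was not called without DES animal 1 (0.69, adjusted p = 0.097) or 2 (0.68, adjusted p = 0.185), or without control animal 7 (0.61, adjusted p = 0.212) or 8 (0.70, adjusted p = 0.122).

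MAP2K4 phosphorylates p38 and JNK. Its active form MAP2K4_P-S257/T261 read 0.313, 0.545 and 0.361 in DES and 0.266, 0.257 and 0.266 in set 5, and again DES had the highest mean of 21 groups, 0.406 ± 0.12, next to 0.388 ± 0.05 in C.I. Direct Black. The log2 fold change was 0.59 (SE 0.22 and adjusted p = 0.269). The transcription factor JUN, a target of JNK, read 0.270, 0.454 and 0.307 in DES and 0.262, 0.241 and 0.210 in set 5, a log2 fold change of 0.50 (SE 0.23 and adjusted p = 0.391). MAPK8_P-T183/Y185, the active form of JNK1, read 0.204, 0.266 and 0.272 in DES and 0.223, 0.267 and 0.218 in set 5, with a log2 fold change of 0.06 (SE 0.23).

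DES animals also lay above set 5 for EIF2A_P-S51, named for a phosphorylated initiation factor, for DUSP4, a phosphatase that inactivates MAP kinases, and for IGFBP1, an insulin-like growth factor binding protein secreted by the liver. EIF2A_P-S51 read 0.140, 0.216 and 0.187 against 0.122, 0.138 and 0.131, and DES had its highest group mean of the series, 0.181 ± 0.04, next to 0.168 ± 0.07 in PBO (SD, n = 3). DUSP4 read 0.230, 0.319 and 0.363 against 0.156, 0.211 and 0.225. IGFBP1 read 0.223, 0.248 and 0.450 against 0.146, 0.206 and 0.190. Their log2 fold changes were 0.45, 0.61 and 0.71, with adjusted p between 0.346 and 0.425, so none was called.

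Below the range of set 5, the only uncalled analyte was MAPK3_P-T202/Y204, the active form of ERK1. It read 2.12, 2.19 and 2.57 in DES and 2.82, 3.69 and 3.15 in set 5, while total MAPK3 read 1.03, 0.955 and 1.47 against 0.967, 1.22 and 1.10. The log2 fold change was -0.48 (SE 0.24 and adjusted p = 0.424), and the other 9 controls ran from 1.87 to 4.15 around it. Of the 16 analytes of the ERK cascade none was called, with a median of 0.06.

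**Figure D4:**
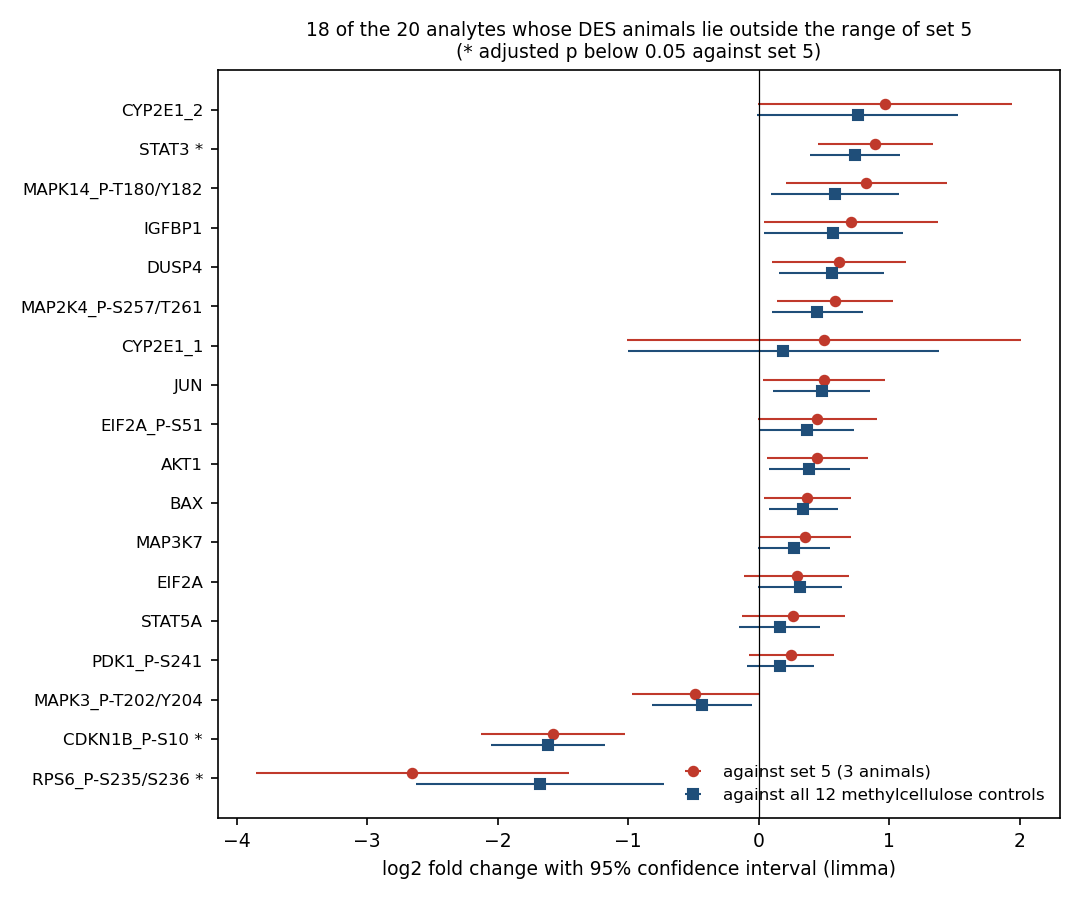
log2 fold change with its 95% confidence interval (limma) for 18 of the 20 analytes whose DES animals all lie outside the range of set 5, against set 5 (red circles) and against all 12 methylcellulose controls (blue squares). GLUL is not drawn. RPS6_P-S235/S236 moves from -2.65 to -1.68 with the reference, and CDKN1B_P-S10 stays at -1.58 and -1.61.

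The drug metabolism list held 18 analytes, and none was called, with 13 positive and 5 negative log2 fold changes and a median of 0.18. The largest rise in it was that of CYP2E1_2 and the largest fall that of CYP1A2_1 (-0.35, SE 0.26). The DES animals were uneven here. In animal 2 the antibodies CYP2B6_1, CYP2C8, CYP2E1_1 and CYP2E1_2, together with CYP4F2 and PAK1_P-S141, read at least 2-fold above both other DES animals, a pattern picked out after its values were seen. CYP2C8 read 1.80, 10.2 and 3.13 in DES and 2.26, 2.67 and 2.91 in set 5. CYP2B6_1, an antibody for the phenobarbital-inducible P450 family, read 0.236, 1.47 and 0.432 against 0.438, 0.371 and 0.434. DES animal 1 had 1 and DES animal 3 had 2 such analytes.

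The 3 DES animals also differed as a whole. Animal 1 had a median log2 ratio to the set 5 mean of -0.09, animal 2 of 0.18 and animal 3 of 0.24. In animal 3, 96 of 158 analytes lay above the range of set 5 and 6 below, whereas in animal 1 the numbers were 23 and 56. STAT3, CDKN1B_P-S10 and RPS6_P-S235/S236 moved in the same direction in all 3 animals. This follows from all their DES animals lying on one side of the range of set 5, so it is no further support. Without DES animal 3, 2 analytes were called against set 5 in place of 4, and 1 against all 12 controls, and without DES animal 1 the counts were 5 and 7.

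In the remaining lists no analyte was called apart from CDKN1B_P-S10. The cell cycle list held 18 analytes with a median of 0.12, and its largest rise was that of AURKA_P-T288/T232/T198, an activated Aurora kinase signal, which read 0.0809, 0.147 and 0.145 in DES and 0.0816, 0.0958 and 0.0695 in set 5 (log2 fold change 0.56, SE 0.22 and adjusted p = 0.304). Its ratio over total was called at the threshold (0.46, SE 0.16 and adjusted p = 0.0499). It was not called against all 12 controls (0.26, adjusted p = 0.192), nor without any single DES animal or control animal 8, and without control animal 9 it was 0.19 (adjusted p = 0.528). MKI67, a proliferation marker, had a log2 fold change of 0.19 (SE 0.26).

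Of the 11 histone and chromatin analytes the largest rise was that of HIST1H3A_P-S10, a mark of mitotic chromosomes, with 0.81 (SE 0.31 and adjusted p = 0.269), and the list median was 0.10. The 4 apoptosis analytes had a median of 0.06, with BAX at 0.37 (SE 0.17) and BCL2L1 at -0.26 (SE 0.23). The 9 receptor tyrosine kinase analytes had a median of 0.09, from 0.45 for ERBB2_P-Y877 to -0.16 for ERBB2. The 4 hormone and growth hormone related analytes had a median of 0.16, and STAT5A_P-Y694, the growth hormone-activated STAT5, read 0.459, 0.257 and 0.317 in DES and 0.239, 0.579 and 0.292 in set 5. Both NF-kappa-B analytes, NFKBIA and NFKBIA_P-S32, were at 0.34 and 0.23. The 7 cytoskeleton and loading analytes had a median of 0.22, from 0.76 for GAPDH (SE 0.47) to -0.94 for ACTB (SE 1.17).

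A typical log2 fold change against set 5 had a 95% confidence interval that reached 0.43, or 1.35-fold, to either side before adjustment for the number of analytes (median over 158 analytes, 3 animals a group).

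DES was then set directly against the 3 other compounds, a comparison that uses no control animals. It cannot separate the compound from anything else that differs between the groups, such as dosing time or labelled control set. PBO, a pesticide synergist known to induce cytochromes P450, was dosed for the same 3 days. Between DES and PBO 6 analytes were called (3.8%), 5 lower (3.16%) and 1 higher (0.633%) in DES, and 16 had an unadjusted p below 0.05 (10.1%). 4 of them were enzymes of drug metabolism, and the 2 others were CDKN1B_P-S10 and STAT3.

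CYP3A4_2, an antibody for the CYP3A family of steroid and drug oxidases, read 1.22, 1.51 and 1.09 in DES, 38.8, 40.0 and 35.6 in PBO and 0.999, 0.881 and 1.20 in set 5. The DES animals overlapped set 5 and PBO lay far above both, with a log2 difference from DES to PBO of -4.92 (SE 0.32 and adjusted p = 1.3e-17). CYP1A2_1 (-2.82, SE 0.26) and CYP2B6_1 (-2.56, SE 0.33) were likewise lower in DES than in PBO, as was POR, the reductase that supplies electrons to P450 enzymes (-1.52, SE 0.25). STAT3 read 2.17, 2.23 and 1.43 in PBO, below every DES animal, a difference of 0.72 (SE 0.22 and adjusted p = 0.048). It was not called without DES animal 2 (0.76, adjusted p = 0.114) or 3 (0.58, adjusted p = 0.28) or without PBO animal 3 (0.51, adjusted p = 0.386), nor in the fit of the 6 DES and PBO animals alone (adjusted p = 0.389) or with trend and robust fitting (adjusted p = 0.0518). CDKN1B_P-S10 read 2.58, 2.57 and 1.94 in PBO, above DES and below set 5 in each animal, and the difference of DES from PBO was -0.94 (SE 0.27 and adjusted p = 0.0403). With the animal number as a block over all treated animals 9 analytes were called, the 6 above with PRKAA1_P-T172 (0.63), BAX (0.50) and MAP2K2 (-0.37) in addition. With the same block in the 6 DES and PBO animals alone, where a single spread was fitted to all analytes, STAT3 and CDKN1B_P-S10 were not called (adjusted p = 0.712 and 0.243) and the 4 drug metabolism enzymes were. RPS6_P-S235/S236 was not called between the compounds (-0.79, SE 0.59 and adjusted p = 0.758).

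ETH, the ethyl analog of methionine, was given for 14 days, so dosing time differed here. Against ETH 2 analytes were called (1.27%), both higher in DES. CYP2B6_3 read 67.7, 249 and 179 in DES and 70.7, 21.9 and 46.3 in ETH (1.80, SE 0.49), and CYP2C8 read 1.70, 1.05 and 1.29 in ETH (1.54, SE 0.41), both with adjusted p = 0.0484. DES animal 1 overlapped ETH for CYP2B6_3. Without DES animal 2 neither was called (adjusted p = 0.623 and 0.691), nor without ETH animal 2 or 3. Without DES animal 3 only 1 analyte was called, and neither CYP2B6_3 (1.64, adjusted p = 0.238) nor CYP2C8 (1.69, adjusted p = 0.0522). The ETH means of 46.3 ± 24.4 for CYP2B6_3 and 1.35 ± 0.33 for CYP2C8 lay below those of set 5, 104 ± 38.8 and 2.61 ± 0.33. DES was not called against set 5 for CYP2B6_3 or CYP2C8. STAT3 was not called between DES and ETH (0.48, SE 0.22 and adjusted p = 0.408).

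Wy, an agonist of the peroxisome proliferator receptor PPAR alpha, was dosed for 3 days. Between DES and Wy 16 analytes were called (10.1%), 14 higher in DES (8.86%) and 2 lower (1.27%), and 40 had an unadjusted p below 0.05 (25.3%). The median log2 difference over all analytes was 0.21, so the panel as a whole read higher in DES. MAP2K1, an ERK pathway kinase, read 23.8, 49.8 and 53.7 in DES and 189.7, 162 and 317 in Wy (-2.42, SE 0.37 and adjusted p = 2.2e-06). CYP3A5 read 0.656, 0.607 and 0.624 in DES and 1.58, 1.56 and 1.47 in Wy (-1.29, SE 0.18 and adjusted p = 1.1e-06). The values of the 2 groups did not overlap for either protein. For MAP2K1 the means were 54.8 ± 8.30 in set 5 and 54.3 ± 39.5 in set 1 (SD, n = 3). For CYP3A5 they were 0.562 ± 0.08 and 0.538 ± 0.05. The control means thus lay nearer to DES than to Wy for both.

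The largest differences in the other direction were those of CYP2B6_3 (2.77, SE 0.49), CYP2C8 (1.62, SE 0.41) and STAT3 (1.45, SE 0.22). CYP2B6_3 had a mean of 21.6 ± 5.37 in Wy and 165 ± 91.3 in DES (SD, n = 3). Set 1 had a mean of 100 ± 34.0 and set 5 of 104 ± 38.8. STAT3 read 1.09, 1.14 and 1.22 in Wy, the lowest group mean of the series (1.15 ± 0.07) beside 1.16 ± 0.17 in dehydroepiandrosterone. DES, at 3.17 ± 0.56, was second of 21 groups behind C.I. Direct Black at 6.33 ± 0.75, and did not differ beyond the spread from dimethylnitrosamine at 2.99 ± 1.02 (SD, n = 3 each). MAPK14_P-T180/Y182 was also called (1.22, SE 0.31 and adjusted p = 0.0049), with 0.391, 0.460 and 0.531 in Wy and no overlap with DES, and total MAPK14 was called with it (0.71, SE 0.19). For MAPK14_P-T180/Y182 Wy had the lowest mean of the 21 groups, 0.461 ± 0.07, with 0.690 ± 0.09 in set 1. CDKN1B_P-S10 and RPS6_P-S235/S236 were not called between DES and Wy (-0.36, SE 0.27, and 0.06, SE 0.59). CYP2C8 was not called against Wy without DES animal 2 (0.92, adjusted p = 0.197) or in the fit of the 6 DES and Wy animals alone (1.62, adjusted p = 0.15). The count was 27 without DES animal 1, 9 without DES animal 2, 8 without DES animal 3 and 9 without Wy animal 1.

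**Figure D5:**
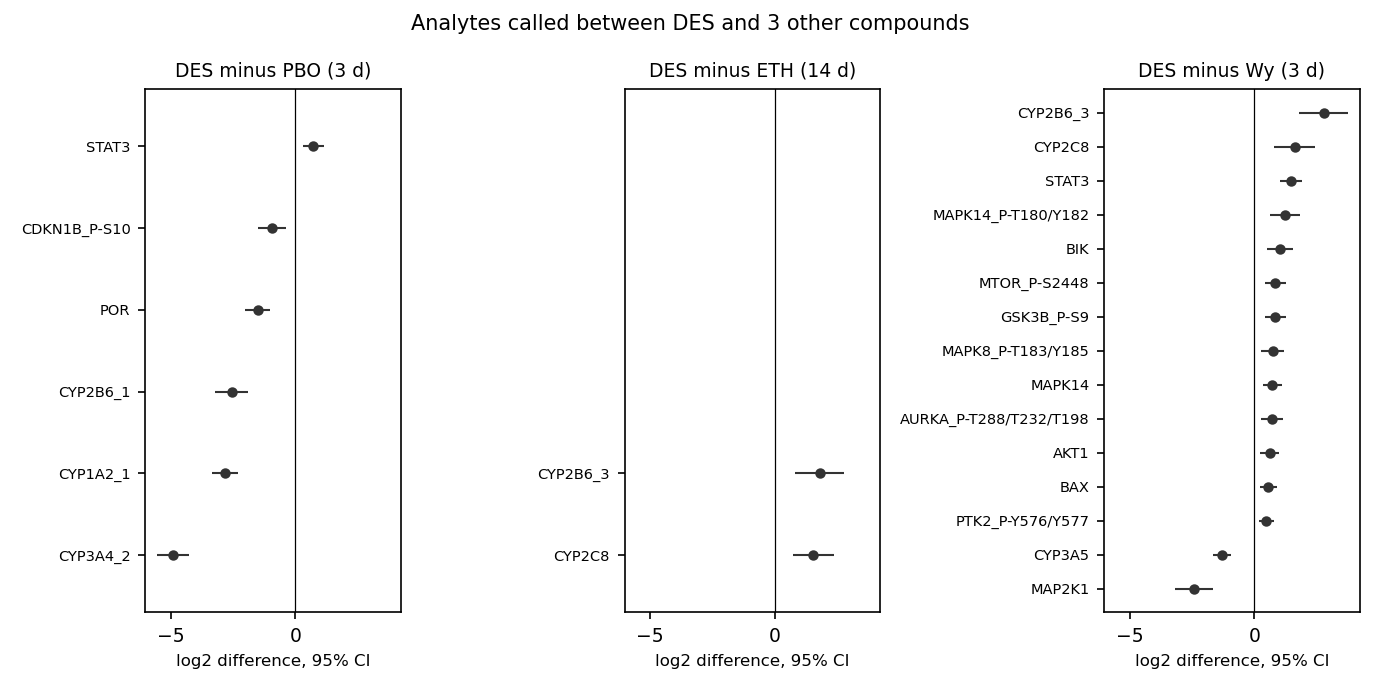
log2 difference of DES minus PBO, ETH or Wy with its 95% confidence interval (limma) for the analytes called in each comparison (15 of 16 for Wy), positive where DES was higher. STAT3 is higher in DES than in PBO and Wy, and the P450 antibodies CYP3A4_2, CYP1A2_1 and CYP2B6_1 are lower in DES than in PBO.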

How the data were processed

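For 63 animals and 158 analytes the authors deposited linear fluorescence intensity (RFI). Per the study's methods, local background was subtracted from spots, which were normalized across the array before replicate spots were averaged, and whether the deposited intensity was also corrected for the secondary antibody alone is not given in the sources used here. The authors also deposited a matrix of log2 ratios to the median of control animals, with missing values imputed, which served as an alternative (0 columns lacked a sample). Its reference animals and offsets stayed unknown.

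RFI at or below 0 (25 values in all, 5 of them in DES and the 12 methylcellulose controls) was set to missing and the rest log2 transformed, with no scaling between animals. limma 3.58.1 (lmFit, eBayes; R 4.3.3) was fitted with 21 group means over all animals, p-values were two-sided and Benjamini-Hochberg adjusted over 158 analytes or 48 ratios, and calls were made at 0.05. All 12 controls entered as the mean of 4 set means. The fit was checked on simulated data with independent noise, no differences between control sets and effects larger than that of STAT3. That check therefore does not bear on smaller effects or on the choice of control set. The design had assumed a blank-corrected signal, and the deposited RFI was used instead. Precision is limited by the number of animals, and depth does not apply to arrays.

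Groups, doses, days and set numbers came from the labels. No label ties the 3 animals of a group to separate experiments beyond their being separate rats. Members, lists and tests were chosen with earlier results of these data known. Named were all called analytes, their total and modified partners, the 10 largest changes each way among analytes outside the range of set 5, the largest rise and fall of each of 13 lists, and the 3 largest called differences each way against PBO, ETH and Wy. Other partners, upstream kinases and the unevenness of DES animal 2 were added after the values were seen. Animals with the same number in DES and PBO deviated together (correlations over analytes 0.17, 0.42 and 0.30), which the labels do not explain, so values with the number as a block are given there beside those without it. Pairs of unlike number in DES and PBO reached 0.04 at most. Unlike pairs with other groups reached similar values (0.37 for DES 2 with Wy 3, 0.28 for DES 1 with Wy 2), so no shared batch is inferred. Alternatives were other reference sets, centring, an offset of 0.1, a trended and robust fit, fits of 6 animals, leaving out the dimmest analytes, the deposited log2 ratios and leaving out each animal, and, added later, the 12 controls as 1 group, a fit without corn oil animals and the block within DES and PBO alone. 1 analyte is not reported here, though the counts include it.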

Additional observations from a re-analysis of the deposited data

How the results depend on the processing

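Against set 5 the number of called analytes was 1 with set 1, 2 or 6 as the reference in place of 4, and 2 to 5 when an animal was left out. CDKN1B_P-S10 was called under 16 of 17 alternatives, RPS6_P-S235/S236 under 14, STAT3 under 11 and GLUL under 9. The deposited log2 ratios gave 6 calls, with 4 higher, 2 lower and 2 in common, and CDKN1B_P-S10 at -0.43. Signs turned for RPS6_P-S235/S236 against set 6 (0.028), for CYP2E1_1 against set 6 (-0.23), and in the deposited log2 ratios for IGFBP1 (-0.0048) and EIF2A_P-S51 (-0.040). The cause was not tested.

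Against all 12 controls the count was 15, 12 higher and 3 lower, after centring each animal on its median, 3 with the controls as 1 group (RPS6_P-S235/S236 lost), and 1 to 7 when a DES animal was left out. Against PBO it was 14 (7 higher, 7 lower) after centring, 15 (11 higher, 4 lower) in the deposited log2 ratios, and 4 to 7 when an animal was left out. Against ETH it was 0 in the fit of the 6 animals alone, with trend and robust fitting and with the offset (unadjusted p below 0.05 for 19 analytes there), 6 in the deposited log2 ratios, and 0 to 2 when an animal was left out. Against Wy it was 32 (23 higher, 9 lower) after centring, 28 in the deposited log2 ratios, and 8 to 27 when an animal was left out. For the ratios over total it was 4 in the fit of the 6 animals alone and 3 to 8 when an animal was left out. In the fit of the 6 animals alone STAT3 had an adjusted p of 0.0549 against set 5.

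DES and set 5 share no replicate number, so no paired analysis was possible there. A replicate block in the fit gave 9 calls against PBO, 1 against ETH and 29 against Wy over all treated animals, and 6 against PBO within the 6 animals alone, 4 of them also called without a block. Numbers did not pair DES with ETH or Wy animals by their correlations, and the block over all treated animals ended the call of CYP2B6_3 against ETH (1.80, adjusted p = 0.0671) and no other named call.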

Other observations

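The deposited log2 ratios and the RFI carry the same analyte names, and their agreement over the 45 treated animals was compared by Spearman's rho of each animal's deviation from the mean of its own group, as a description. RPS6_P-S235/S236 had a rho of 0.957 with its own name and of 0.268 with the best other row, and CYP2E1_2 of 0.953 and 0.746. STAT3 had 0.553 with its own name and 0.535 with the row named RPS6_1, so its own row hardly stood out. Some other analytes had a higher rho with another row, the best of all others, than with their own. These were STAT3_P-Y705 (0.239 own, 0.567 best other), EIF2A_P-S51 (0.166, 0.580) and CDKN1B_P-T187 (0.294, 0.640). IGFBP1 (0.453, 0.595) and JUN (0.623, 0.737) were likewise closer to another row, so their names are in doubt as well. CDKN1B_P-S10 had a rho of 0.369 with its own name and of 0.833 with the row named CDKN1B, and the total CDKN1B had 0.0104 with its own name. In the row named CDKN1B the DES animals stood at -1.08, -1.69 and -2.03, and in the row named CDKN1B_P-S10 at 0.67, -1.16 and 0.70. Which of the names belongs to which antibody was not settled.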
